A study of Mus musculus with 27 samples.

Results

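The haem pathway enzymes measured here are the 9 genes Alas1, Alas2, Alad, Uros, Urod, Cpox, Ppox, Fech and Hmox1, that is, enzymes of haem synthesis together with haem oxygenase 1. Every probe set whose platform annotation names one of them was taken, which gave 12 of the 12488 probe sets of the array, or 9 of the 8252 genes it names, with at least 1 set for each gene. RNA came from whole brain of mice of 2 inbred strains at 10 weeks of age, all described as naive. The C57 group held 5 males, whose strain the labels write as C57BL/2, and the DBA group held 4 DBA/2J mice of unstated sex, and the array numbers, 1 to 5 and 1 to 4, were taken as 1 animal each. The labels describe no pooling and no other treatment or genetic change in either strain, and the 18 arrays of the other platform were not used here. Whole brain mixes many cell types, so fewer cells of a type and less RNA per cell cannot be told apart.

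Haem is the iron porphyrin that carries oxygen in globins and electrons in cytochromes. Its synthesis starts in mitochondria, where the isoenzymes encoded by Alas1 (in most tissues) and Alas2 (in red cell precursors) join glycine and succinyl-CoA to aminolevulinate. It runs through the cytosol by way of Alad, Uros and Urod, and returns to the mitochondrion for the steps of Cpox, Ppox and Fech, the last of which inserts iron. Hmox1 encodes the inducible enzyme that breaks haem down to biliverdin, iron and carbon monoxide. The enzyme encoded by Alad condenses aminolevulinate to the pyrrole porphobilinogen, needs zinc, and is a main target of lead.

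Alad was the single member whose strain difference passed the threshold given below. It is shown with the start regions of the 2 aminolevulinate synthase genes, because those isoenzymes are separate genes that were read by separate probe sets. Each sequence is the 250 bases before a transcription start of the C57BL/6J reference, from RefSeq with build GRCm38.p6. Capitals mark matches on either strand to 4 motifs. The letters searched were GGGCGG for the GC box, CACGTG for the E-box and CCACCC for the CACC box. The GATA motif was searched as GATA with A or T before it and A or G after it. Alad lies at chr4:62520064-62520313 on the minus strand, Alas1 at chr9:106247955-106248204 on the minus strand, and Alas2 at chrX:150547167-150547416 on the plus strand. 
Alad: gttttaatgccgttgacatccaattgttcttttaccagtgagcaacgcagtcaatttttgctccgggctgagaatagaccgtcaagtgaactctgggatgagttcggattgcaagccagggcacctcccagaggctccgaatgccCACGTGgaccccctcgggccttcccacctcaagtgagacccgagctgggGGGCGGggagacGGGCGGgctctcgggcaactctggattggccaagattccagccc
Alas1: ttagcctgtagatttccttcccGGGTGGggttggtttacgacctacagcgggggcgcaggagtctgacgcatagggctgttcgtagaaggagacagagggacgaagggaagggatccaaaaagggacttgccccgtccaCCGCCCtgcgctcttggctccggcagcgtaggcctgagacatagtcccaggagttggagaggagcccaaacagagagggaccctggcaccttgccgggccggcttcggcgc
Alas2: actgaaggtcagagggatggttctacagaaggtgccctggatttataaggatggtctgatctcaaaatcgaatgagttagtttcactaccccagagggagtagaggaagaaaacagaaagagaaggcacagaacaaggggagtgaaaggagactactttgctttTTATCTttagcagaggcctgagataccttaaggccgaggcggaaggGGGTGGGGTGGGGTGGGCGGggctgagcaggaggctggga
The Alad window held 1 E-box and 2 GC boxes and no GATA motif, and a further annotated start of Alad lay 154 bases downstream. The window of that further start, not shown, held 1 E-box and 6 GC boxes, some of them overlapping, and no GATA motif. The Alas1 window held 1 CACC box and 1 GC box, and the window of a further annotated start of Alas1, not shown, held none of the 4 motifs. The Alas2 window held 1 GATA motif, 3 CACC boxes and 1 GC box, the last of which overlaps a CACC box. Of all 32851 windows of this length in the table, 32.7% held a GC box, 6.02% an E-box, 28.1% a CACC box and 26.5% a GATA motif. A core of the antioxidant response element (TGACNNNGC), present in 10.2% of all windows, was found in none of the 10 member windows searched. These belong to 7 members (Alad, Alas1, Alas2, Uros, Urod, Cpox and Ppox), and no window of Fech or Hmox1 was searched. All these matches describe letters of the reference strain only, and no sequence of the DBA mice was read.

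Values are deposited intensities on a linear scale, whose trimmed mean was 499.9 on all 9 arrays. Array medians ran from 159.6 to 197.8, and pairs of arrays correlated at 0.945 to 0.970 in log2 intensity across probe sets (a description, since sets are no replicates). The test was limma on log2 intensity over all 9316 probe sets past a brightness limit of 35.4, and a call is a Benjamini-Hochberg adjusted p under 0.05. In 4 ratios of 3' to 5' control probe sets, a sign of RNA integrity, 3 overlapped between strains. That of Gapdh did not, with log2 ratios from -0.29 to -0.19 in C57 and from -0.44 to -0.32 in DBA, and the part of this in the results below was not tested. All 8 neuron markers on the array passed the brightness limit. The liver markers Alb, Apoa1, Fgb, Ahsg and Tat lay below it. The set of Xist, the RNA of the inactive X chromosome, lay between 16.4 and 36.0 on the 9 arrays. The set of the Y-linked gene Eif2s3y lay between 249 and 384 in C57 and between 296 and 338 in DBA, although its f_at suffix marks a set that can match similar sequences. Uty, also Y-linked, read 57.6 to 173.2 in C57 and 62.7 to 102.4 in DBA (-0.63 ± 0.31, adjusted p = 0.461), and the Y-linked gene Kdm5d lay below the brightness limit. No scan date or batch is given in the sources used here.

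The Alad signal was higher in DBA than in C57 brain. It rests on 1 probe set, 101044_at, and whether a strain difference in sequence under its probes has a part in the signal was not tested. The set read 539.0, 590.8, 494.7, 663.0 and 699.0 in C57 animals 1 to 5 and 1879.9, 2076.2, 1898.9 and 1835.4 in DBA animals 1 to 4. The lowest DBA animal lay far above the highest C57 animal, and the DBA animals lay closer together, with a highest value 1.13 times the lowest against 1.41 times in C57. The geometric mean was 592 in C57 and 1920 in DBA (SD of log2 values 0.21, n = 5, and 0.08, n = 4), a 3.24-fold difference. On the log2 scale this was 1.70 ± 0.12 (standard error; 95% confidence interval 1.42 to 1.97; limma adjusted p = 5.32e-05). Among the 83 probe sets called higher in DBA, Alad had the 17th largest log2 difference, and by p it also stood at place 17 of all tested sets.

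**Figure D1:**
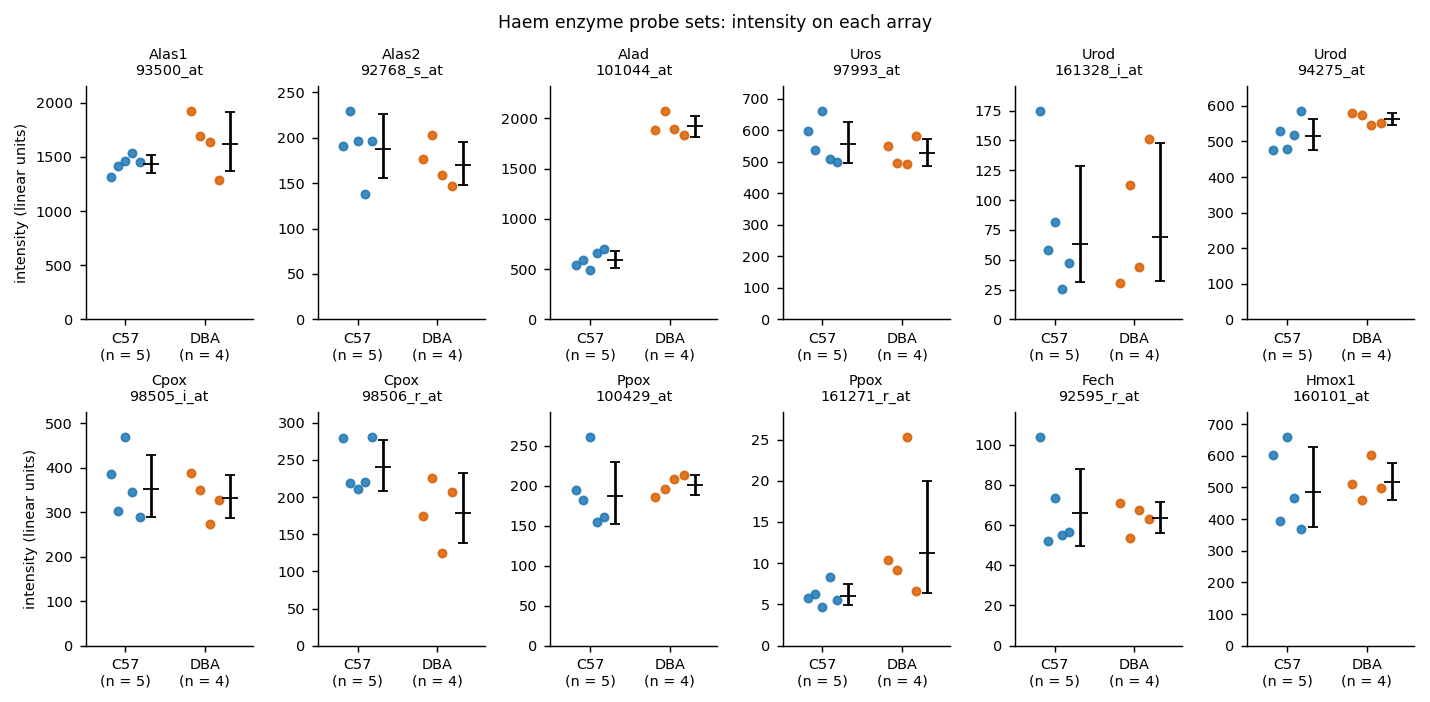
Deposited intensity (linear axis from 0, a separate scale in each panel) of the 12 haem enzyme probe sets on each array of C57 (blue, 5 animals, in order of number) and DBA (orange, 4 animals). Black marks give the geometric mean and 1 SD of log2 values. At Alad the DBA animals lie between 1835.4 and 2076.2 and the C57 animals between 494.7 and 699.0, and the strains overlap in all other panels.

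Of the 12 member sets, 11 passed the brightness limit, at least 1 for each gene. Alad was the 1 set called, higher in DBA, and 0 were called lower. Over all tested probe sets 2.50% were called, 0.891% higher and 1.61% lower in DBA. Alad was also the single member set at which the strains did not overlap, which was seen at 6.45% of all tested sets. Of the other 10 sets, which stand for 8 genes, limma called 0, and 1 had an unadjusted p under 0.05. Their differences ran from -0.43 to 0.18 with a median of 0.02, against a median of 0.01 over all tested sets, and 5 lay above 0 and 5 below. Sizes were also ordinary, with a median absolute log2 difference of 0.11 over these 10 sets and of 0.15 over all tested sets. With each array centred on the mean log2 intensity of those 10 sets, Alad differed by 1.71 ± 0.21 (adjusted p = 0.000554), so its difference was unequal to the mean of the other enzymes. The 95% intervals of the 10 sets reached at most 1.48, at a widely spread set of Urod, and at most 0.51 elsewhere. The interval of Alad begins at 1.42, so it overlapped that of this Urod set and of no other member set.

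**Figure D2:**
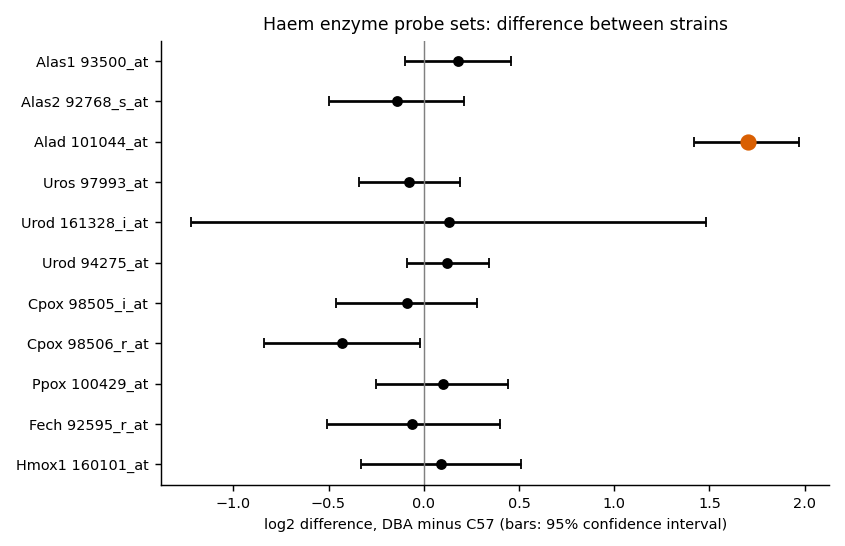
Log2 difference, DBA minus C57, of the 11 tested haem enzyme probe sets, with 95% confidence intervals from limma (5 C57 and 4 DBA animals). The orange point is the called set, Alad at 1.70. Intervals of all other sets except Cpox 98506_r_at include 0.

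**Figure D3:**
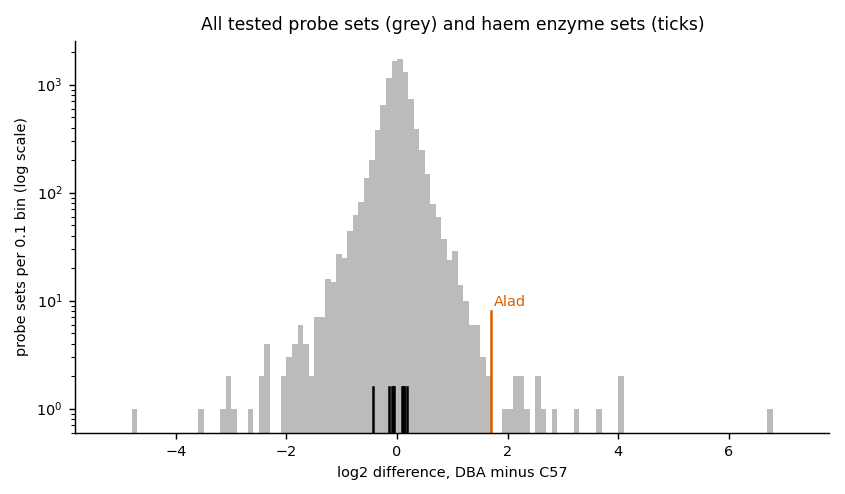
Number of probe sets per 0.1 bin of log2 difference, DBA minus C57, on a log axis, for the 9316 tested sets (grey). Black ticks mark the 10 other haem enzyme sets, from -0.43 to 0.18, and the orange tick marks Alad at 1.70; the height of a tick has no meaning.

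The first step of the pathway was read by a set for each isoenzyme. Alas1, whose product sets the rate of haem synthesis outside red cells, read 1310.7, 1414.6, 1460.6, 1534.4 and 1458.1 in C57 and 1927.2, 1693.2, 1639.8 and 1291.9 in DBA. DBA animals 1 to 3 lay above all C57 animals and DBA animal 4 below all of them. The difference was 0.18 ± 0.13 (95% interval -0.10 to 0.46, adjusted p = 0.662), and it moved from 0.09 without DBA animal 1 to 0.29 without DBA animal 4 (adjusted p = 0.259). Alas2, the red cell isoenzyme, read 190.9, 229.7, 195.9, 137.6 and 196.5 in C57 and 176.7, 202.7, 158.7 and 146.3 in DBA. All DBA values fell within the C57 range, and the difference was -0.14 ± 0.16 (interval -0.50 to 0.21, adjusted p = 0.813). The suffix s_at of the Alas2 set (92768_s_at) marks a set whose probes can match more than 1 transcript.

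Red cell markers were read beside Alas2, since blood left in the brain carries RNA of red cells. Of 23 listed markers 12 were on the array and 10 passed the brightness limit, none of them at 0 on any array. Limma called 0 of the 10, and 3 had an unadjusted p under 0.05. The differences of 6 of the 10 lay above 0, with a median of 0.05. The summed intensity of the 10 brightest sets ran from 13503 to 19287 in C57 and from 16464 to 21281 in DBA. The alpha globin gene Hba-a1 read 4187 to 7467 in DBA and 5173 to 9278 in C57 (difference -0.15 ± 0.23, adjusted p = 0.864). The beta globin gene Hbb-b2 differed by 0.60 ± 0.21 (adjusted p = 0.253). Klf1 differed by 0.51, Rhd by 0.06, Epor by 0.04, Rhag by -0.03, Tspo2 by -0.19 and Slc4a1 by -0.23. Car2 (0.43 ± 0.11, adjusted p = 0.0929), a carbonic anhydrase that glia also express, and Ank1 by set 100440_f_at (0.47 ± 0.13, adjusted p = 0.139), an ankyrin of the red cell skeleton that neurons also express, did not overlap between the strains but missed the threshold. The f_at set of Ank1 can match similar sequences, and the strains overlapped at its other sets, 100439_i_at (0.18 ± 0.14, adjusted p = 0.7) and 100441_s_at (0.24 ± 0.17, adjusted p = 0.662). Over all tested sets, 6.45% showed no overlap between the strains. The part of red cell RNA in the Alad difference was not tested. Of the other marker lists, 8 neuron, 6 astrocyte and 9 vascular markers were tested, with 0 called in each. In that order 4, 3 and 4 lay above 0, with medians of -0.00, -0.05 and -0.02. An unadjusted p under 0.05 was seen at 0, 1 and 2 of them. All 5 tested oligodendrocyte markers lay below 0 (median -0.57), with 0 called, 3 at an unadjusted p under 0.05 and none at 0. Their summed intensity ran from 19145 to 27544 in C57 and from 18710 to 22565 in DBA, and their part in the Alad difference was not tested either. The 4 tested markers of the choroid plexus and liver list (Apoa2, Folr1, Kl and Ttr) all lay above 0 (median 0.42), with 0 called, 1 at an unadjusted p under 0.05 and none at 0. Their summed intensity ran from 1182 to 3549 in C57 and from 3494 to 4659 in DBA. Ttr, the transthyretin gene of the choroid plexus, read 907.4, 2970.3, 1964.1, 2440.2 and 1995.2 in C57 and 3147.6, 2969.6, 4143.2 and 3638.1 in DBA (0.85 ± 0.30, limma adjusted p = 0.257). The part of these cells in the Alad difference was not tested.

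Of the cytosolic steps after Alad, Uros encodes the synthase that closes the ring to uroporphyrinogen III and Urod the decarboxylase that follows. Uros read 596.8, 536.4, 662.0, 510.1 and 498.9 in C57 and 549.8, 497.3, 492.6 and 582.4 in DBA, with a difference of -0.08 ± 0.12 (interval -0.34 to 0.19, adjusted p = 0.87). The Urod set 94275_at had the smallest spread of all member sets. It read 477.2, 528.2, 479.9, 518.8 and 586.3 in C57 and 580.3, 573.0, 546.0 and 552.3 in DBA. All 4 DBA animals lay above C57 animals 1 to 4 but below C57 animal 5. The SD of log2 values within strains was 0.10, at percentile 3.8 of all tested sets, and the difference was 0.12 ± 0.10 (interval -0.09 to 0.34, adjusted p = 0.7). The other Urod set, 161328_i_at, spread 6.85-fold within C57 and 4.91-fold within DBA, with a within-strain SD at percentile 99.0 of tested sets, and its difference of 0.13 ± 0.60 (interval -1.22 to 1.48) does not limit the gene further. Its suffix i_at marks a set with fewer unique probes than the design aimed for.

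The mitochondrial steps gave no call. Cpox, the oxidase that forms protoporphyrinogen, had a pair of sets made from 1 source sequence. By 98505_i_at it read 385.8, 301.9, 469.4, 346.2 and 290.1 in C57 and 388.0, 349.6, 274.8 and 327.5 in DBA (difference -0.09 ± 0.16, adjusted p = 0.898). By 98506_r_at it read 279.7, 218.4, 211.6, 220.2 and 280.9 in C57 and 175.1, 225.8, 124.9 and 206.8 in DBA. DBA animals 1, 3 and 4 lay below all C57 animals and DBA animal 2 lay among them. This difference was -0.43 ± 0.18 (interval -0.84 to -0.02, unadjusted p = 0.0435, limma adjusted p = 0.384), and it was -0.25 without DBA animal 3. The suffix r_at marks a set for which some design rules were dropped.

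Ppox, whose product oxidizes protoporphyrinogen, read 194.3, 182.9, 261.2, 155.0 and 161.2 in C57 and 186.2, 196.7, 208.1 and 213.2 in DBA at 100429_at, with a difference of 0.10 ± 0.15 (interval -0.25 to 0.44, adjusted p = 0.872). C57 animal 3 was the highest of all 9. Its other set, 161271_r_at, was the 1 member set below the brightness limit. It read 5.8, 6.3, 4.7, 8.3 and 5.6 in C57 and 10.4, 9.2, 25.3 and 6.6 in DBA, so both strains lay under the limit of 35.4 and no fold is given. An exact 2-sided permutation test over the 9 arrays gave an unadjusted p of 0.0317, where 0.0159 is the smallest this design allows. Fech, the ferrochelatase of the last step, was read by 92595_r_at alone, a set with the r_at suffix described above for Cpox. It read 103.8, 52.2, 73.6, 55.3 and 56.5 in C57 and 71.1, 53.7, 67.3 and 63.0 in DBA. These values are not far above the limit, and the difference was -0.06 ± 0.21 (interval -0.51 to 0.40, adjusted p = 0.948).

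Hmox1 stands for haem breakdown and is induced by oxidative stress and by haem itself. It read 601.8, 392.9, 659.0, 467.0 and 369.8 in C57 and 512.1, 461.2, 602.5 and 496.6 in DBA. All DBA animals fell within the C57 range, and the difference was 0.09 ± 0.19 (interval -0.33 to 0.51, adjusted p = 0.913). Microglia are among the brain cells that can express Hmox1. Of 10 microglia markers, all tested, 0 were called higher and 2 lower in DBA, the complement genes C1qb (-0.85 ± 0.12, adjusted p = 0.00343) and C1qc (-0.65 ± 0.13, adjusted p = 0.0318), with no marker at 0. By the brightest set per gene, 2.23% of all 6864 named genes were called in either direction. The differences of 3 of the 10 markers lay above 0, with a median of -0.13, and 3 markers had an unadjusted p under 0.05. The summed intensity of the 10 markers ran from 6537 to 7892 in C57 and from 6498 to 6986 in DBA, and their part in the Hmox1 values was not tested. The C1qb set 162276_i_at differed by -0.58 ± 0.31 (adjusted p = 0.517).

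A pair of C57 animals often stood together at the ends of the C57 range. At 6 of the 11 tested sets (Uros, Urod 161328_i_at, Cpox 98505_i_at, Ppox, Fech and Hmox1) C57 animals 1 and 3 were the 2 highest of the 5. At 2 sets, Alad and Urod 94275_at, they were the 2 lowest. This pattern was chosen after the values were seen. Over all 9316 tested sets the same animals were the 2 highest at 29.2% and the 2 lowest at 16.2%, and their arrays had the highest medians of log2 intensity in C57 (7.63 and 7.58, against 7.33 to 7.41). With arrays centred on their median, the counts were 3 sets highest and 3 lowest, against 12.5% and 34.6% of all sets. The part of array scaling in these deviations was not tested. Without both animals Alad differed by 1.56 ± 0.11 (adjusted p = 0.000576). Hmox1 then differed by 0.34 ± 0.14 and Ppox by 0.27 ± 0.11 (adjusted p = 0.347 for each), and 0 other members were called.

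**Figure D4:**
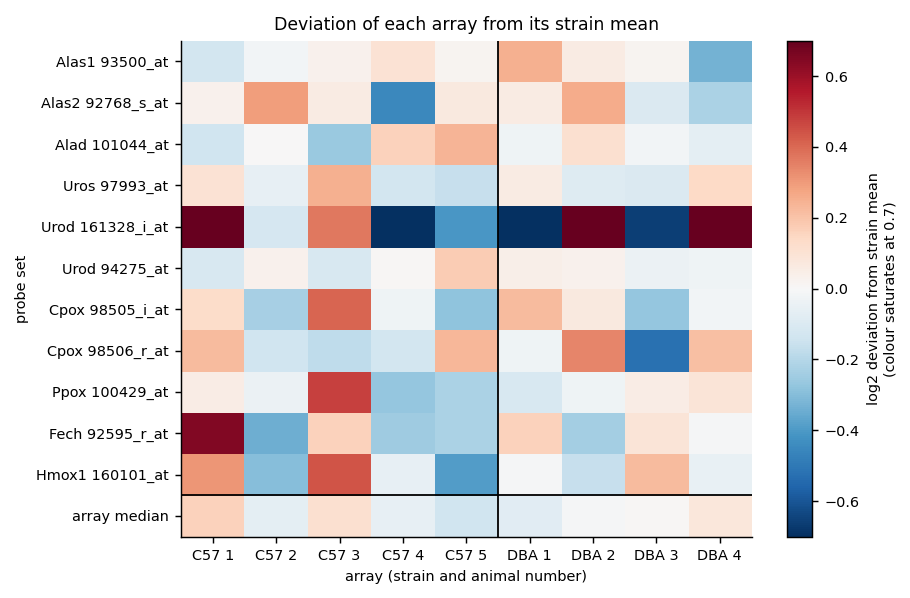
Deviation of each array from the mean of its strain, in log2 units, for the 11 tested haem enzyme probe sets and for the array median (bottom row); red is above and blue below the strain mean, and colours saturate at 0.7. C57 animals 1 and 3 are red at Uros, Hmox1, Fech and the array median and blue at Alad.

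Alad lies on mouse chromosome 4, and its neighbours there were read to see how far the difference extended. Of the 10 protein-coding genes on each side in the RefSeq gene order (assembly GRCm38.p6, used for order only), 9 of 20 were on the array and 6 had a tested set. Limma called 0 of these 9 sets, and 0 had an unadjusted p under 0.05. All but 1 of them lay at or above 0, with a median of 0.09. Pole3, a histone-fold subunit of DNA polymerase epsilon and the next gene on one side, read 625.9, 497.8, 668.0, 650.8 and 520.2 in C57 and 603.9, 672.8, 591.7 and 769.8 in DBA at its brightest set, 160743_at (0.16 ± 0.13, interval -0.14 to 0.45). Its set 100408_at differed by 0.30 ± 0.18 (interval -0.11 to 0.71), and 162096_at was below the brightness limit. Hdhd3, the next gene on the other side, was not measured by a named set. Rgs3, a regulator of G protein signalling, differed by 0.09 ± 0.14. On the other side the subunit gene of the anaphase-promoting complex Cdc26 differed by 0.00 ± 0.11 and the copper importer gene Slc31a1 by 0.03 ± 0.12 and 0.05 ± 0.10 at its 2 sets. The zinc finger gene Zfp37 differed by 0.17 ± 0.16 (92974_at) and -0.43 ± 0.35 (161605_f_at). Orm3, an orosomucoid gene beyond Rgs3, differed by 1.02 ± 0.68 with an interval from -0.50 to 2.54, since its C57 animals spread from 11.2 to 107.5. The sets of Ambp, Orm1 and Orm2 lay below the brightness limit. The intervals of all tested neighbour sets except that of Orm3 ended below the 1.42 at which the interval of Alad begins.

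**Figure D5:**
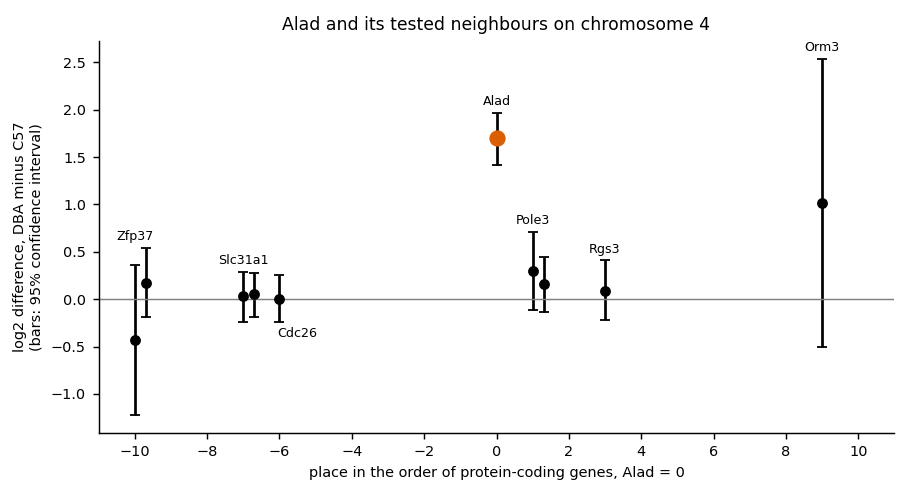
Log2 difference, DBA minus C57, with 95% confidence intervals, of Alad (orange, place 0) and of the 9 tested probe sets of 6 neighbours by place in the order of protein-coding genes on chromosome 4; sets of 1 gene are drawn side by side. Pole3, at place 1, differs by 0.30 and 0.16, and Alad by 1.70.

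Genes around the pathway were taken from 6 lists and read by the brightest set of each gene, and 2.23% of all 6864 named genes were called on this basis. Of the other genes of haem breakdown 2 were tested, Blvra and Hmox2, and limma called 0, with 0 at an unadjusted p under 0.05. Blvra, a biliverdin reductase, had the smaller p (-0.23 ± 0.23, adjusted p = 0.79). Of 11 tested genes of haem and porphyrin transport 0 were called and 2 had an unadjusted p under 0.05. The smallest p was that of Abcg2, an exporter that carries porphyrins among other substrates (-0.36 ± 0.14, adjusted p = 0.302). Of 13 tested regulators of haem enzymes 0 were called and 1 had an unadjusted p under 0.05, the nuclear receptor gene Nr1d2, whose product binds haem (0.25 ± 0.11, adjusted p = 0.399).

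Of 8 tested genes of iron uptake, storage and export 0 were called and 1 had an unadjusted p under 0.05, the endocytic receptor gene Lrp2 (-0.67 ± 0.28, adjusted p = 0.36), and 7 of the 8 lay below 0 with a median of -0.10. Of 7 tested genes of iron-sulfur cluster assembly 0 were called and 0 had an unadjusted p under 0.05, and the smallest p was that of the ferredoxin gene Fdx1 (0.26 ± 0.13, adjusted p = 0.46). Of 16 tested genes of haem proteins 1 was called, higher in DBA. It was Nos1, the neuronal nitric oxide synthase, which holds haem in its active site. Nos1 read 143.8, 115.6, 156.9, 77.2 and 101.7 in C57 and 244.2, 279.5, 262.4 and 191.3 in DBA, with no overlap. It was 2.10-fold higher (1.07 ± 0.21, adjusted p = 0.0269). Its adjusted p rose above 0.05, so that the call was lost, when any of 5 single animals was left out. These were C57 2 (0.0681), C57 5 (0.0729), DBA 1 (0.0839), DBA 2 (0.0964) and DBA 3 (0.0876).

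The probe sets whose log2 intensity followed that of Alad most closely over the 9 arrays were those of Gnb1 (97458_at, Pearson r = 0.989), H2-D1 (97541_f_at, 0.984), Akap1 (97368_at, 0.978), Cap1 (93721_at, 0.976) and Glo1 (93269_at, 0.976). All were called higher in DBA, by 4.08, 2.52, 0.82, 2.89 and 1.10 on the log2 scale in that order, so the arrays form 2 separate groups in each of these pairs, and all points share the arrays and their scaling. Among the other member sets the highest r with Alad was 0.69, at Urod 94275_at, and Alas1 had 0.54.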

How the data were processed

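Per the labels, each cRNA target was prepared from 5 ug of RNA. The authors deposited intensities on a linear scale; how probes were summarised and scaled is not given in the sources used here. Probe sets were named through the platform annotation, with symbols updated by gene identifier through the RefSeq table (GRCm38.p6). After leaving out 66 array controls, intensities under 1.7 (the 1st percentile) were raised to it and log2 was taken. The dimmest 25% of sets by mean were left out, and the strains were compared with limma 3.58.1 (lmFit, eBayes; R 4.3.3) across all 9316 remaining probe sets, DBA minus C57, 2-sided, with Benjamini-Hochberg adjustment. The test was checked on simulated data. Folds are ratios of geometric means, and ± gives a standard error. A set below the brightness limit got an exact permutation test (scipy 1.17.1). Named genes were all members, called list genes or otherwise the smallest p, all measured neighbours, and the 5 sets most like Alad over the arrays and the 5 most like it with strain means subtracted. Other cell type and sex markers (Hba-a1, Hbb-b2 and Ank1 among them) were named in addition, after their values were seen. The members and lists were chosen with earlier results of these data known. Alternatives were other scaling, floors, filters, variance models, array weights, the number as a block, 1 set per gene and leaving animals out. Arrays were mapped by title, because the descriptions of all samples carry the same alias (that of the first C57 array). That each array is 1 mouse was assumed from the numbering, which matches the stated numbers of mice. The number of arrays limits the precision, and p-values set the difference between strain means against the spread between these animals. Figures were drawn with matplotlib 3.10.9.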

Additional observations from a re-analysis of the deposited data

How the results depend on the processing

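The Alad difference stayed between 1.56 and 1.76 on the log2 scale and past the threshold under all 21 alternatives run (largest adjusted p = 0.00676, with the number as a replicate block, where it was 1.76). It was 1.63 to 1.76 with 1 animal left out. The count over all probe sets, 233, became 73 with the replicate block and 154 with 1 set per gene; animals left out in turn gave 184 to 228. Same-numbered animals deviated at correlations of -0.17 to -0.01, so the numbers were not taken to pair them. The other enzymes and the neighbours of Alad stayed at 0 calls under all alternatives run for them. The 1 call of the wider lists, Nos1, became 0 without a filter on dim sets, with the dimmest 50% left out, where its set was not tested, and with the replicate block, and 0 to 1 with 1 animal left out. Signs of small differences (Urod 161328_i_at, Cpox 98505_i_at, Fech, Hmox1 and, without C57 animals 1 and 3, Uros) turned under some alternatives. Leaving out both C57 animals 1 and 3 was chosen after seeing the data, and gave 188 calls.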

Other observations

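With the mean of each strain subtracted, the sets that followed Alad most closely over the 9 arrays were those of Bzw2 (Pearson r = 0.989), Zscan21 (0.979), Csnk1g2 (0.978), Macroh2a1 (0.971) and Lias (0.970), none of which was called between the strains. Lias encodes the enzyme that makes lipoic acid in mitochondria. On the same basis Urod 94275_at had r = 0.84 with Alad, and Uros, Ppox and Hmox1 had -0.91, -0.88 and -0.81. These values describe 9 arrays that share their scaling, were searched over all named sets for the first 5 genes, and carry no test.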
